A study of Mus musculus with 10 samples.

Results

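Chemokine ligands are small secreted proteins that steer leukocytes. They bind receptors coupled to G proteins on the moving cell, are held on the heparan sulphate of nearby surfaces, and are named by the spacing of their first cysteines (CC, CXC, CX3C and XC). Some are made constantly and place resting cells in tissues, and others are induced by cytokines through NF-kB or interferon signalling. In liver they are known for guiding monocytes, neutrophils, T cells and natural killer cells, and hepatocytes, macrophages, endothelium and stellate cells can all make them.

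The genes described here are those whose symbol is Ccl, Cxcl, Cx3cl or Xcl followed by a number alone and which had a transcript cluster of the array to themselves. The rule found 33 genes among the 22180 tested, each with 1 cluster, and it used no measured difference. Ccl19 was read only by clusters that also carry other symbols, and the copies of Ccl21 and Ccl27 and the platelet chemokines Pf4 and Ppbp have other names, so none of these is a member. Levels were measured on 10 mouse arrays: 3 of hepatocyte-like cells, made by differentiating embryonic stem cells, 3 of hepatocytes from adult liver and 4 of undifferentiated embryonic stem cells. Every group shares one genotype, a C.FVB background with the L2G85Chco/FathJ transgene Tg(CAG-luc, GFP), in which the CAG promoter drives luciferase and green fluorescent protein, and one label for passage, which is also given for the adult hepatocytes. The labels give no age or sex and do not say whether the stem cells are 1 line or clone. The replicates are called biological in the labels, which do not say whether they came from separate cultures or animals, so a p-value here reflects only how far these samples spread.

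The labelled cell types were set against their markers. All 8 hepatocyte markers rose in adult hepatocytes over embryonic stem cells, and 3 of 8 did so in hepatocyte-like cells. Their mean level on an array was 5.66, 6.30 and 7.74 in hepatocyte-like replicates 1, 2 and 3, 12.72 to 12.80 in adult hepatocytes and 4.81 to 5.08 in embryonic stem cells. Hepatocyte-like replicate 3 stood apart, but not over the whole list. In it 5 of the 8 hepatocyte markers were at their highest, such as albumin (Alb) at 10.80 against 4.85 and 5.14 in replicates 1 and 2, whereas the 3 that were called, Ttr, Apoa1 and Fgb, were highest in replicate 2, with Ttr at 9.04, 10.44 and 8.77. The pluripotency factor Nanog was at 7.12 in replicate 3 against 5.08 and 5.09. Called ligand results that lose the call or move by over 1.5 times without that array are given with and without it. The adult samples also carried markers of other liver cells. Against the stem cells, 10 of 12 Kupffer cell and macrophage genes were higher there and 1, Cd68, was lower. Of 10 endothelial genes 7 were higher and 1, Pecam1, was lower. Of 12 stellate cell and fibroblast genes 2 were higher, Lrat and Dcn, and 1, Des, was lower. In hepatocyte-like cells 8 of 12 stellate cell and fibroblast genes rose over embryonic stem cells, with array means of 9.07, 8.10 and 7.29 against 5.01 to 5.25. Lrat was not called in that comparison (group means of 4.36 and 4.34). By limma 0 of 9 neutrophil genes were called in any comparison (at an unadjusted p under 0.05, 4 passed in each comparison with adult hepatocytes and 0 in the other), and the highest mean of that list on an array was 4.53. In samples of many cells, fewer cells of a type and less RNA per cell cannot be told apart.

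**Figure D1:**
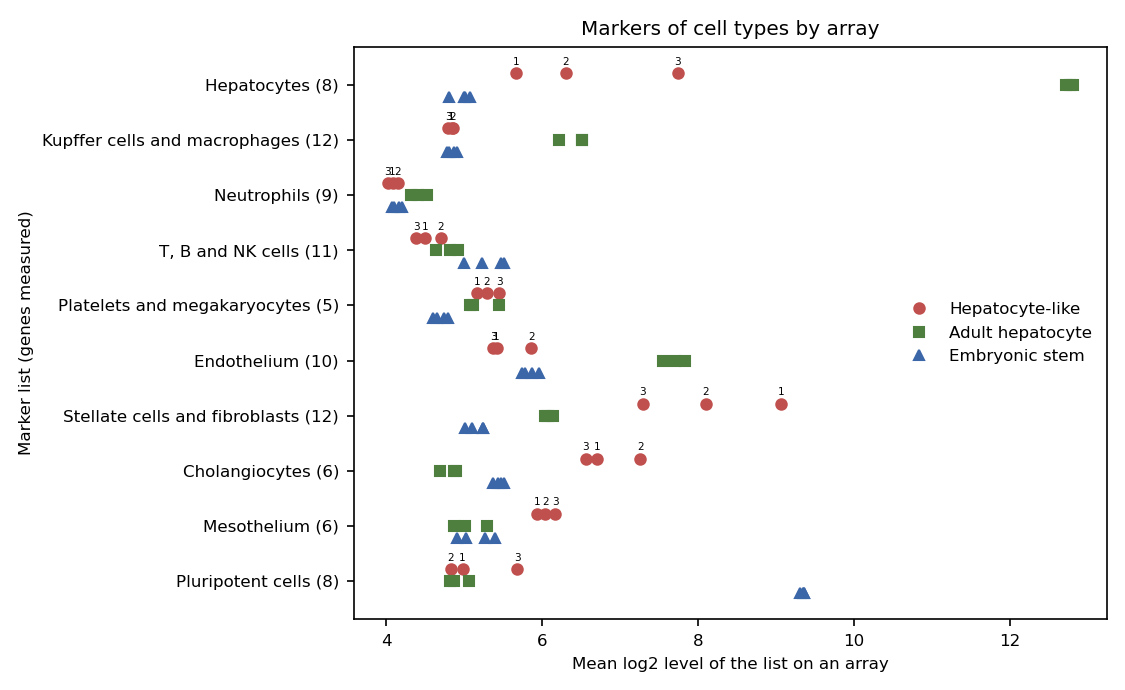
Mean log2 level of each marker list (horizontal axis) on each array, with 1 symbol per array and colour for the cell kind; the small digits give the replicate number of the hepatocyte-like arrays. Macrophage and endothelial lists were higher on the 3 adult arrays, the stellate cell and fibroblast list on the 3 hepatocyte-like arrays, and hepatocyte markers reached 7.74 on hepatocyte-like replicate 3.

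A gene was called when its limma adjusted p, taken over all 22180 genes, was under 0.05 and its log2 difference was at least 1 either way, which is a 2-fold difference. Log2 levels below 5.5 were taken as near the floor of the array, a choice that no background measurement backs, and folds against such levels are uncertain. Of the 33 ligand genes 16 (48.5%) were below 5.5 in the mean of every cell kind, as were 40.3% of all genes tested. Hepatocyte-like cells had 12 ligand genes at or above that level, adult hepatocytes 14 and embryonic stem cells 6. These counts per cell kind were not set against all genes tested, so they are not shown to be particular to the ligands.

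In hepatocyte-like cells 7 of 33 ligand genes (21.2%) were called against embryonic stem cells, all 7 higher, beside 16.0% of all genes (8.61% higher and 7.35% lower). The 7 were Ccl2, Ccl7, Ccl17, Cxcl11, Cxcl12, Cxcl13 and Cxcl16. In adult hepatocytes 6 of 33 (18.2%) were called against embryonic stem cells, all higher, beside 26.6% of all genes (11.0% higher and 15.6% lower). These were Ccl6, Ccl9, Cxcl1, Cxcl9, Cxcl11 and Cxcl12. Between hepatocyte-like cells and adult hepatocytes 7 of 33 (21.2%) were called, beside 23.0% of all genes: Ccl2, Ccl7 and Ccl17 were higher in hepatocyte-like cells, and Ccl9, Cxcl1, Cxcl9 and Cxcl12 were lower. For all genes 13.9% were higher and 9.12% lower in that comparison. The share of ligand genes called lay above that of all genes in the first of these comparisons and below it in the other 2, and the shares were not tested against each other. The median log2 difference of the 33 was 0.27 for hepatocyte-like against embryonic stem cells, 0.36 for adult hepatocytes against embryonic stem cells and -0.10 for hepatocyte-like against adult cells, beside -0.01, 0.05 and -0.04 over all genes. The 3 comparisons share arrays in pairs, so their counts are not independent.

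**Figure D2:**
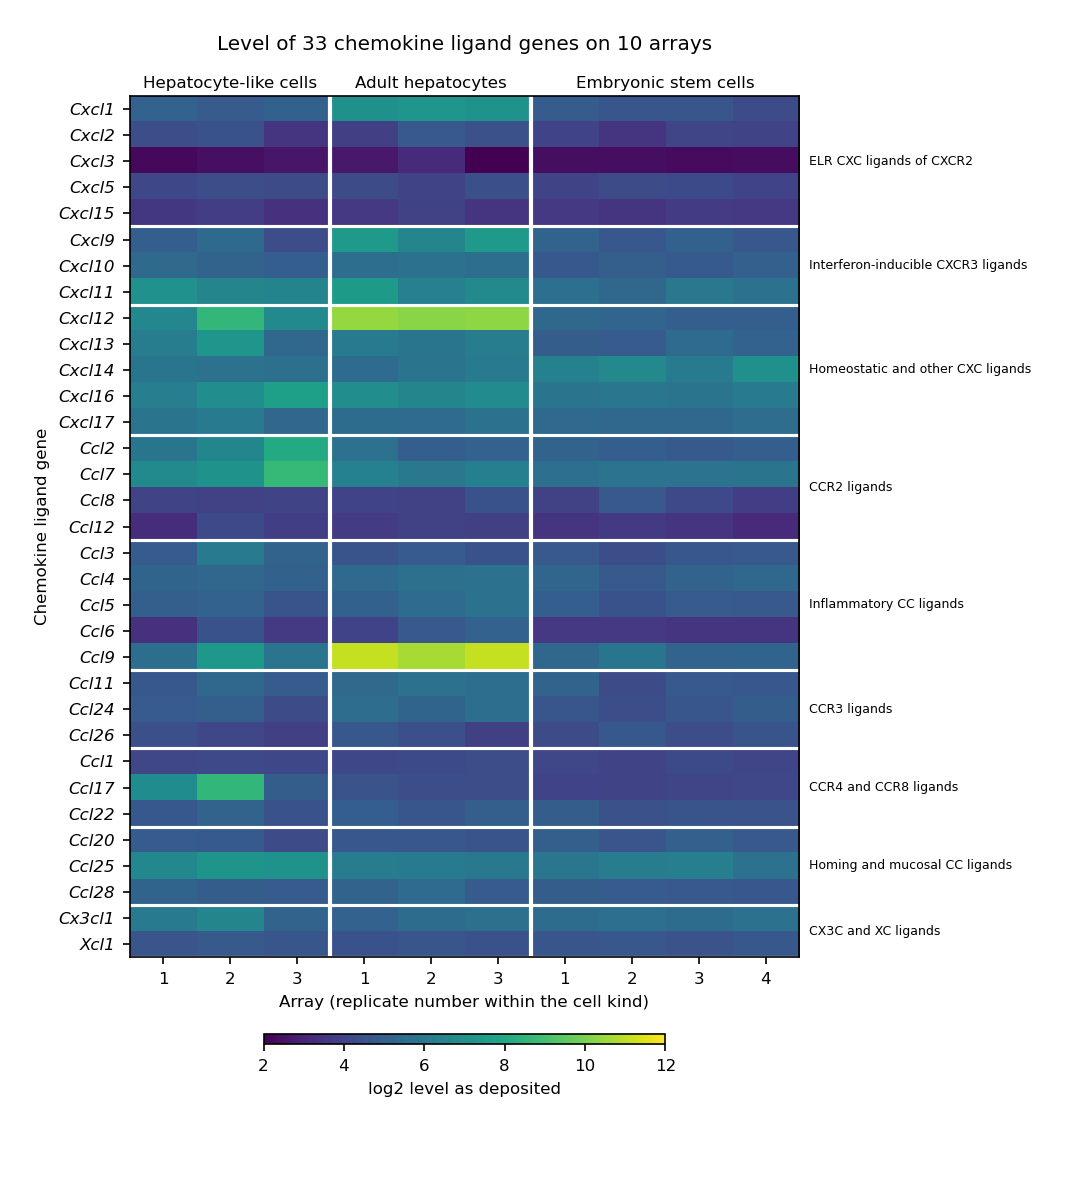
Log2 level of the 33 chemokine ligand genes (rows, grouped by assigned role) on the 10 arrays (columns, grouped by cell kind), with the scale from 2 to 12 below. Ccl9 and Cxcl12 stand above 10 on all 3 adult arrays, Ccl17 is at 6.85 and 8.63 on hepatocyte-like arrays 1 and 2, and Ccl2 and Ccl7 are at 8.10 and 8.69 on array 3.

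Promoter sequence is shown for 4 members that were lower in hepatocyte-like cells than in the adult cells, Cxcl1, Cxcl9, Cxcl12 and Ccl9, and for Ccl17, which was higher. Of the 33 genes 22 have a promoter in the RefSeq table of GRCm38.p6. Each line gives the 250 bases before the annotated start, 5′ to 3′ on the gene's strand. Capitals mark matches, on either strand, to an NF-kB type motif (GGGAANNNCC), an interferon-stimulated response element (GAAANNGAAA), a STAT type motif (TTCNNNGAA) or a TATA motif (TATAAA). The coordinates are RefSeq's, since no source used here gives the build behind the array.
Cxcl1, chr5:90890995-90891244, plus strand: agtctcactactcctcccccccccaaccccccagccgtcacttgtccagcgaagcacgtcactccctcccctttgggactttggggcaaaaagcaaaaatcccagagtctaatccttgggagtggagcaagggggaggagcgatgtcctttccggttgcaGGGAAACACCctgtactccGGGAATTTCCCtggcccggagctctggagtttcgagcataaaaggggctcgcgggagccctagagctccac
Cxcl9, chr5:92328080-92328329, minus strand: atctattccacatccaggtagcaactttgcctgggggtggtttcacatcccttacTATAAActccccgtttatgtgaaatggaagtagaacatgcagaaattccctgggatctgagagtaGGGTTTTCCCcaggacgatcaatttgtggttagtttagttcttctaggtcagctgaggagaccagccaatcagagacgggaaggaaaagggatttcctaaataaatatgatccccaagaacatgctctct
Cxcl12, chr6:117168285-117168534, plus strand: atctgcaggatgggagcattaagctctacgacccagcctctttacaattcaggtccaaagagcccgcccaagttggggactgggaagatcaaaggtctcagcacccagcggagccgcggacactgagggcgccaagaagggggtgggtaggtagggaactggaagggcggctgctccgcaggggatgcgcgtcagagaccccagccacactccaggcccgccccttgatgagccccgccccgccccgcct
Ccl9, chr11:83578637-83578886, minus strand: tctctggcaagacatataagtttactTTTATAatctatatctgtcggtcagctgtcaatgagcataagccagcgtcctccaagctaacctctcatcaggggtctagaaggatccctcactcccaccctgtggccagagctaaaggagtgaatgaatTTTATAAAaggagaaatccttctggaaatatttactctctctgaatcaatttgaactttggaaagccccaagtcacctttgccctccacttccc
Ccl17, chr8:94810203-94810452, plus strand: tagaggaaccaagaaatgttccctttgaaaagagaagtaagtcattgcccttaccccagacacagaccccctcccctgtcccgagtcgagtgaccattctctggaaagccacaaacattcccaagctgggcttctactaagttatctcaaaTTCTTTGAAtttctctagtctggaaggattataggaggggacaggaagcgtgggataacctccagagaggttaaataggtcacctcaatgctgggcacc
Cxcl1 held GGGAANNNCC at 90 to 81 bases before the start and again at 71 to 62, where the opposite strand also matched 1 base further on, at 70 to 61, so that these last matches overlap. Cxcl9 held 1 such match, 130 to 121 bases before its start on the opposite strand, and 1 TATAAA. This motif stood in 7 of the 22 ligand genes with a window (Ccl1, Ccl20, Cxcl1, Cxcl2, Cxcl3, Cxcl9 and Cxcl10). It stood in 4.94% of all 32851 promoter windows of that length. For each motif a ligand gene counted if any of its windows matched, whereas the share over all is of single windows. The measures are therefore not alike. GAAANNGAAA stood in 2 of 22 (Cxcl10 and Cxcl14) against 2.98% of all windows, TTCNNNGAA in 2 of 22 (Ccl17 and Cxcl14) against 7.02%, and TATAAA in 9 of 22 against 12.37%. Ccl9 held TATAAA at 3 places, of which the forward match at 92 to 87 and a reverse match at 94 to 89 overlap. None of the 4 motifs was found in the window of Cxcl12, which is 64.4% G and C with 14 CpG, against 43.6% and 2 CpG in Ccl9, and medians over all windows of 52.4% and 6.0 CpG. A match describes the letters only.

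The CXC ligands that carry a glutamate-leucine-arginine motif draw neutrophils through CXCR2. Of the 5 measured, Cxcl1 alone was called in any comparison. Cxcl1 read 5.13, 4.88 and 5.11 in hepatocyte-like cells, 7.04, 7.23 and 7.11 in adult hepatocytes, and 4.89, 4.68, 4.67 and 4.29 in embryonic stem cells. The 3 adult arrays lay above the other 7 without overlap. Cxcl1 rose in adult hepatocytes over embryonic stem cells by 2.49 ± 0.17 (log2 difference ± SE, 5.63-fold, limma adjusted p = 7.08e-08). It was lower in hepatocyte-like cells than in the adult cells, by a log2 difference of -2.09 ± 0.18 (adjusted p = 9.96e-07). Between hepatocyte-like and embryonic stem cells the difference was 0.41 ± 0.17 (adjusted p = 0.0923, 95% interval 0.04 to 0.77). The other 4, Cxcl2, Cxcl3, Cxcl5 and Cxcl15, had group means of 2.34 to 4.39, all below 5.5, so a low transcript cannot be told from none. Cxcl1 and Cxcl2 are neighbours in RefSeq, with no other protein-coding gene between them. Cxcl2 read 4.39, 4.51 and 3.49 in hepatocyte-like cells, 3.90, 4.78 and 4.48 in adult hepatocytes, and 4.00, 3.51, 4.09 and 4.03 in embryonic stem cells, and its groups overlapped. Cxcr2, the receptor of this group, is carried by leukocytes, and its group means differed by 0.28 at most (adjusted p = 0.381 for that difference).

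Ligands of CXCR3, the receptor of activated T cells and natural killer cells, are induced by interferon. Cxcl9 read 4.99, 5.42 and 4.35 in hepatocyte-like cells, 7.42, 6.55 and 7.42 in adult hepatocytes, and 5.17, 4.71, 5.10 and 4.70 in embryonic stem cells. It rose in adult hepatocytes over embryonic stem cells by 2.21 ± 0.28 (4.62-fold, adjusted p = 2.31e-05) and was lower in hepatocyte-like cells than in the adult cells (-2.21 ± 0.30, adjusted p = 5.88e-05). Hepatocyte-like and embryonic stem cells overlapped and lay below 5.5 (difference -0.00 ± 0.28, 95% interval -0.60 to 0.60). Macrophages and endothelium are known sources of Cxcl9. On the same arrays the Kupffer cell genes Clec4f and Vsig4 read 7.35, 6.90 and 6.89, and 7.92, 7.0 and 7.12, in adult hepatocytes, against at most 5.02 and 3.90 in embryonic stem cells. They belong to the list of 12 macrophage genes, of which 10 rose and 1, Cd68, fell in that comparison. Of 10 endothelial genes 7 rose and 1 fell. The part of these cells in the result was not tested.

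Cxcl10 read 5.44, 5.17 and 5.01 in hepatocyte-like cells, 5.61, 5.77 and 5.63 in adult hepatocytes, and 4.75, 5.05, 4.85 and 5.06 in embryonic stem cells. Its adult arrays lay above both other kinds, but the differences stayed under the call, at 0.74 ± 0.16 for adult hepatocytes against embryonic stem cells (adjusted p = 0.00176) and -0.47 ± 0.17 for hepatocyte-like against adult cells (adjusted p = 0.0476). Cxcl11 was the member of this group with a call in hepatocyte-like cells. It read 7.07, 6.54 and 6.5 in hepatocyte-like cells, 7.46, 6.34 and 6.74 in adult hepatocytes, and 5.64, 5.32, 6.01 and 5.74 in embryonic stem cells. It rose over embryonic stem cells by 1.02 ± 0.26 in hepatocyte-like cells (adjusted p = 0.00948) and by 1.16 ± 0.26 in adult hepatocytes (adjusted p = 0.00255). The call in hepatocyte-like cells was lost without hepatocyte-like replicate 1 (0.84) or embryonic stem cell replicate 2 (0.90) and after quantile normalization or median centring (0.94 each), and the adult call without adult replicate 1 (0.86) or with array weights (0.99). RefSeq lists Cxcl11 of its C57BL/6J assembly as a transcribed pseudogene. The labels here give a C.FVB background, and whether that entry describes the gene in these samples was not tested.

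Of 9 interferon signalling genes measured, 0 were called higher and 1 lower in hepatocyte-like cells against embryonic stem cells. That gene was Stat2, a subunit of the interferon response complex (-1.32 ± 0.28, adjusted p = 0.00307). By limma 4 of the 9 passed an unadjusted p under 0.05. Under the log2 cut were Isg15 (0.80 ± 0.24, adjusted p = 0.0269) and Gbp3 (0.70 ± 0.22, adjusted p = 0.0281), both with means below 5.5. Irf9 was also under it (-0.97 ± 0.26, adjusted p = 0.0141). In adult hepatocytes 4 rose over embryonic stem cells, led by the GTPase Igtp (3.97 ± 0.28, adjusted p = 1.11e-07), the ubiquitin-like Isg15 (1.78 ± 0.24) and the transcription factor Irf7 (1.23 ± 0.21), with Ifit1 at 1.06 ± 0.29. In hepatocyte-like cells against adult hepatocytes 3 were lower and 0 higher, Igtp (-4.37 ± 0.30), Stat2 (-1.91 ± 0.30) and Irf7 (-1.08 ± 0.23). Without hepatocyte-like replicate 3 the transcription factors Irf1 and Irf9 and Isg15 were also lower than in the adult cells (-1.03, -1.25 and -1.17), and Irf9 lower than in the stem cells (-1.30). Cxcr3 differed by 0.18 at most between group means, and interferon gamma, Ifng, lay between 3.9 and 4.3 on every array. The interferon gamma receptor chains Ifngr1 and Ifngr2 rose in hepatocyte-like cells over embryonic stem cells, by 2.64 ± 0.28 and 1.95 ± 0.24, and in adult hepatocytes by 2.14 ± 0.28 and 1.20 ± 0.24.

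**Figure D3:**
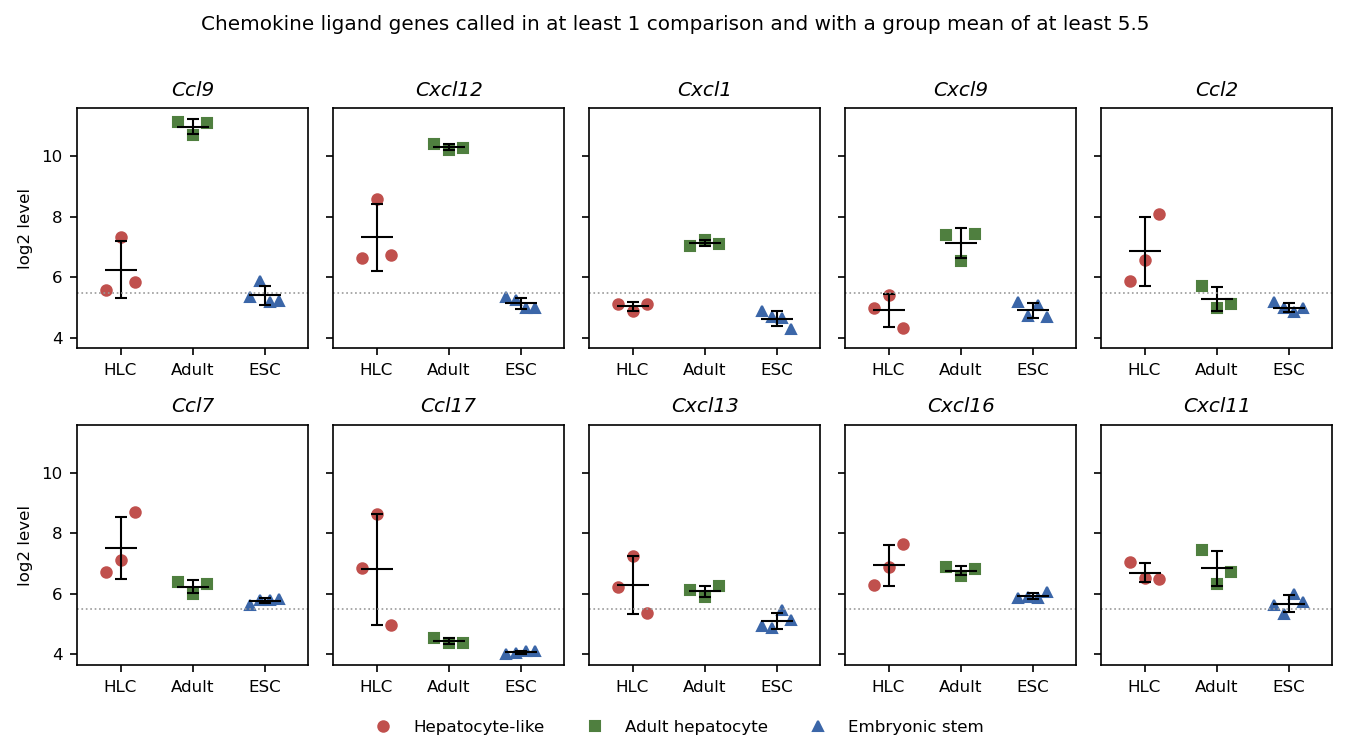
Log2 level on each array (symbols), with the mean and SD of each cell kind (black bars), for the 10 ligand genes that were called in at least 1 comparison and reached a group mean of 5.5 (dotted line); HLC stands for hepatocyte-like cells, Adult for adult hepatocytes and ESC for embryonic stem cells. Ccl9, Cxcl12, Cxcl1 and Cxcl9 separate the adult arrays from all others, whereas Ccl2, Ccl7 and Ccl17 are highest in hepatocyte-like cells with wide spread.

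Cxcl12, the ligand of CXCR4 and of the scavenging receptor Ackr3, is made constantly by stroma and endothelium and holds blood progenitors and lymphocytes in place. It was graded over the 3 cell kinds. It read 6.65, 8.61 and 6.74 in hepatocyte-like cells, 10.40, 10.22 and 10.29 in adult hepatocytes, and 5.36, 5.24, 5.0 and 4.99 in embryonic stem cells, with no overlap between any 2 kinds. It rose over embryonic stem cells by 2.19 ± 0.37 in hepatocyte-like cells (4.55-fold, adjusted p = 6.42e-04) and by 5.16 ± 0.37 in adult hepatocytes (35.7-fold, adjusted p = 1.38e-07). It was lower in hepatocyte-like cells than in the adult cells by -2.97 ± 0.40 (7.85-fold, adjusted p = 5.72e-05). Without hepatocyte-like replicate 2, the array that read 8.61, the differences were 1.55 over embryonic stem cells and -3.61 against adult hepatocytes, and both calls held. Of 10 endothelial genes 7 rose and 1 fell in adult hepatocytes against embryonic stem cells, where the sinusoidal markers Stab2 and Clec4g read 7.28, 8.19 and 7.70, and 8.90, 8.62 and 9.15. In hepatocyte-like cells 2 rose over embryonic stem cells, the cadherin Cdh5 and the receptor Kdr, and 3 fell, Pecam1, Eng and Tek, with a median log2 difference of 0.21 for the list. Replicate 2 was the highest hepatocyte-like array for 7 of the 10 and replicate 3 for 3. The stellate cell and fibroblast list had another order than Cxcl12. Its array means were 9.07, 8.10 and 7.29 in hepatocyte-like replicates 1, 2 and 3 and 6.03 to 6.14 in adult hepatocytes. The part of these cells in the level of Cxcl12 was not tested.

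The receptors of Cxcl12 gave no call. Cxcr4 read 6.45 to 7.05 in hepatocyte-like cells, 5.59 to 6.10 in adult hepatocytes and 5.71 to 6.02 in embryonic stem cells. Its differences stayed under a log2 difference of 1, at 0.85 ± 0.19 for hepatocyte-like against embryonic stem cells (adjusted p = 0.00391) and 0.96 ± 0.20 for hepatocyte-like against adult cells (adjusted p = 0.00211). Ackr3 differed by 0.65 ± 0.22 between hepatocyte-like cells and adult hepatocytes (adjusted p = 0.0383) and was not called. Dpp4, the peptidase that trims and inactivates Cxcl12 and several other chemokines, followed another order. It was lower in hepatocyte-like cells than in the stem cells (-1.59 ± 0.37, adjusted p = 0.00576) and than in the adult cells (-4.65 ± 0.40), and higher in adult hepatocytes than in the stem cells (3.05 ± 0.37).

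Cxcl13 draws B cells through CXCR5. It read 6.22, 7.27 and 5.36 in hepatocyte-like cells, 6.12, 5.89 and 6.25 in adult hepatocytes, and 4.95, 4.88, 5.48 and 5.15 in embryonic stem cells. It rose in hepatocyte-like cells over embryonic stem cells by 1.17 ± 0.34 (adjusted p = 0.0204), although hepatocyte-like replicate 3 fell within the range of the stem cells. The call did not survive leaving out hepatocyte-like replicate 2 (0.68, adjusted p = 0.0797) or embryonic stem cell replicate 2 (1.09, adjusted p = 0.0534). With the replicate number as a block it was at 1.18 (adjusted p = 0.0576). In adult hepatocytes the difference from embryonic stem cells was 0.97 ± 0.34 (adjusted p = 0.0360), just under the call.

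Cxcl16 is a membrane-bound ligand that is shed by Adam10 and Adam17 and is read by CXCR6 on natural killer T cells of liver. It read 6.30, 6.89 and 7.65 in hepatocyte-like cells, 6.89, 6.61 and 6.82 in adult hepatocytes, and 5.85, 5.92, 5.86 and 6.07 in embryonic stem cells. Every array of the first 2 kinds lay above the 4 stem cell arrays. It rose in hepatocyte-like cells over embryonic stem cells by 1.02 ± 0.25 (adjusted p = 0.00780), at the edge of the call. The call was lost in 6 of 19 alternatives: the difference was 0.67 without hepatocyte-like replicate 3, just under 1 without embryonic stem cell replicate 1 or 3, 0.93 after quantile normalization, 0.94 after median centring and 0.87 with array weights. The same contrast for adult hepatocytes gave 0.85 ± 0.25 (adjusted p = 0.0155), not called, and 1.02 after cyclic loess. Adam10 rose in hepatocyte-like cells by 1.58 ± 0.15 over embryonic stem cells and by 1.41 ± 0.16 over adult hepatocytes, whereas Adam17 was not called in any comparison.

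Cxcl14, which epithelia make, was one of 4 members with their highest group mean in embryonic stem cells. It read 5.87, 5.73 and 5.68 in hepatocyte-like cells, 5.51, 5.86 and 6.07 in adult hepatocytes, and 6.39, 6.72, 6.16 and 7.02 in embryonic stem cells. Both other kinds lay below all 4 stem cell arrays, by a log2 difference of -0.81 ± 0.21 for hepatocyte-like cells (adjusted p = 0.0114) and -0.76 ± 0.21 for adult hepatocytes (adjusted p = 0.0112), which is under the call. Cxcl17 was not called, with group means of 5.78 in hepatocyte-like cells, 5.60 in adult hepatocytes and 5.43 in embryonic stem cells.

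CCR2 ligands bring monocytes out of the blood. Ccl2 and Ccl7 are direct neighbours in a row of CC genes on chromosome 11 in RefSeq, and both were highest in hepatocyte-like cells. Ccl2 read 5.89, 6.59 and 8.10 in hepatocyte-like cells, 5.72, 4.98 and 5.14 in adult hepatocytes, and 5.19, 4.98, 4.84 and 4.99 in embryonic stem cells. In hepatocyte-like cells it exceeded the stem cells by 1.86 ± 0.39 (3.63-fold, adjusted p = 0.00293) and the adult cells by 1.58 ± 0.42 (2.99-fold, adjusted p = 0.00957). Ccl7 read 6.73, 7.13 and 8.69 in hepatocyte-like cells, 6.41, 6.01 and 6.31 in adult hepatocytes, and 5.65, 5.80, 5.80 and 5.84 in embryonic stem cells. Its differences were 1.74 ± 0.35 over embryonic stem cells (3.35-fold, adjusted p = 0.00211) and 1.27 ± 0.37 over adult hepatocytes (2.42-fold, adjusted p = 0.0172).

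Both genes had the same order over the 3 hepatocyte-like arrays, with replicate 3 highest and replicate 1 lowest. All 3 arrays lay above both other kinds, so the separation does not rest on replicate 3, but the size does. Without it Ccl2 differed by 1.24 from embryonic stem cells (adjusted p = 0.00263) and by 0.96 from adult hepatocytes (adjusted p = 0.0132), with the call against adult hepatocytes lost. Ccl7 differed by 1.16 from embryonic stem cells (adjusted p = 5.54e-04) and by 0.69 from adult hepatocytes, again not a call. Its call against adult hepatocytes was also lost without adult replicate 2 (adjusted p = 0.0659) and with those 2 kinds fitted alone (adjusted p = 0.0550). Fibroblasts and macrophages are known sources of both ligands. Replicate 3 was the highest hepatocyte-like array for 1 of 12 stellate cell and fibroblast genes. For the 12 macrophage genes each of the 3 arrays was highest for 4. The mean of the macrophage list was 4.84, 4.85 and 4.80 in replicates 1, 2 and 3. The part of these cells in the result was not tested. The other genes grouped here under CCR2 ligands, Ccl8 and Ccl12, stand further along the same row. They had group means of 3.49 to 4.18, below 5.5 in every kind, with no call. Which receptor the mouse Ccl8 protein binds was not checked. Ccr2 lay between 3.5 and 4.3 on every array.

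Ppbp, a neutrophil chemokine of platelets that is outside the naming rule, had the same order. It read 5.97, 6.59 and 8.94 in hepatocyte-like cells, 5.67, 6.08 and 5.55 in adult hepatocytes, and 4.47, 4.39, 4.69 and 4.55 in embryonic stem cells, and rose in hepatocyte-like over embryonic stem cells by 2.64 ± 0.51 (adjusted p = 0.00156). Without hepatocyte-like replicate 3 the difference was 1.76 (adjusted p = 9.62e-05). The platelet chemokine Pf4 lay between 2.73 and 3.75 on all 10 arrays and was not called, so that of 5 platelet genes measured Ppbp alone was called. Cklf and Mif, chemokine-like cytokines, were lower in adult hepatocytes than in the stem cells (-1.86 ± 0.22 and -1.61 ± 0.18). Both were higher in hepatocyte-like cells than in the adult cells (2.12 ± 0.23 and 1.24 ± 0.20).

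Ccl9, which attracts myeloid cells through CCR1 in the mouse, had the widest difference of the 33 genes. It read 5.60, 7.33 and 5.84 in hepatocyte-like cells, 11.13, 10.69 and 11.11 in adult hepatocytes, and 5.36, 5.87, 5.18 and 5.24 in embryonic stem cells. The adult arrays lay more than 3 log2 units above every other array. It rose in adult hepatocytes over embryonic stem cells by 5.56 ± 0.34 (47.3-fold, adjusted p = 3.21e-08) and was lower in hepatocyte-like cells than in the adult cells by -4.72 ± 0.37 (26.3-fold, adjusted p = 4.01e-07). Between hepatocyte-like and embryonic stem cells it was not called (0.85 ± 0.34, adjusted p = 0.0901). That value was 0.31 without hepatocyte-like replicate 2 and 1.18 without replicate 1, where it passed the call (adjusted p = 0.0251). Macrophages are a known source of Ccl9 in the mouse. Of 12 genes of the macrophage list 10 rose and 1 fell in adult hepatocytes against embryonic stem cells. The array means of the list were 6.22 to 6.52 in the adult samples and 4.78 to 4.91 in embryonic stem cells. The part of these cells in the result was not tested.

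Ccl6 lies next to Ccl9 in RefSeq and is also read by CCR1. It read 3.43, 4.52 and 3.70 in hepatocyte-like cells, 4.02, 4.80 and 5.14 in adult hepatocytes, and 3.65, 3.66, 3.50 and 3.49 in embryonic stem cells. It was called in adult hepatocytes over embryonic stem cells (1.08 ± 0.28, adjusted p = 0.00734), with all means below 5.5, and lost the call without adult replicate 3 (0.83), after quantile normalization (0.96), median centring (0.98) or cyclic loess (0.93). The inflammatory CC ligands that T cells, natural killer cells and macrophages release, Ccl3, Ccl4 and Ccl5, were not called in any comparison. Ccl3 read 4.90, 6.16 and 5.17 in hepatocyte-like cells, 4.61, 4.86 and 4.52 in adult hepatocytes, and 4.80, 4.42, 4.72 and 4.78 in embryonic stem cells, so that 1 array, hepatocyte-like replicate 2, was above 5.5. For Ccl5 the adult arrays read 5.10, 5.51 and 5.78, all above the 4 of embryonic stem cells at 4.53 to 5.0 (0.67 ± 0.20, adjusted p = 0.0158), and for Ccl4 the same difference was 0.45 ± 0.17 (adjusted p = 0.0467).

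CCR3 ligands act on eosinophils. Ccl11 and Ccl24 were higher in adult hepatocytes than in the stem cells by 0.86 ± 0.22 (adjusted p = 0.00566) and 0.80 ± 0.20 (adjusted p = 0.00551), without overlap of the arrays and under the call. Their adult means were 5.60 and 5.48, near the floor. Ccl26 was not called, with means of 4.15 to 4.51. The receptor Ccr3 had low levels in all kinds, at 2.3 to 2.9 in hepatocyte-like cells, 4.0 to 5.2 in adult hepatocytes and 2.6 to 2.7 in embryonic stem cells, and was the 1 chemokine receptor of 17 measured that was called. It rose in adult hepatocytes over embryonic stem cells by 1.95 ± 0.24 and was lower in hepatocyte-like cells than in the adult cells by -2.00 ± 0.25.

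Ccl17 binds CCR4, the receptor of type 2 helper and regulatory T cells, and is made mainly by dendritic cells. It had the widest difference of any ligand gene between hepatocyte-like and embryonic stem cells. It read 6.85, 8.63 and 4.96 in hepatocyte-like cells, 4.55, 4.40 and 4.37 in adult hepatocytes, and 4.02, 4.06, 4.10 and 4.13 in embryonic stem cells. All 3 hepatocyte-like arrays were above the other 7, but they spread over 3.67 log2 units, and replicate 3 was below 5.5. The difference was 2.74 ± 0.58 over embryonic stem cells (6.68-fold, adjusted p = 0.00297) and 2.38 ± 0.62 over adult hepatocytes (5.20-fold, adjusted p = 0.00855). Without replicate 2 it was 1.83 and 1.47, and without replicate 3 it was 3.67 and 3.3, with every call kept. Ccl22, the other CCR4 ligand, and Cx3cl1 are the neighbours of Ccl17 on chromosome 8. Ccl22 read 4.76, 5.17 and 4.53 in hepatocyte-like cells, 4.99, 4.66 and 5.02 in adult hepatocytes, and 4.96, 4.46, 4.61 and 4.54 in embryonic stem cells, with overlap between all kinds. Cx3cl1, a membrane-bound ligand that natural killer cells and monocytes read, was at 6.06, 6.59 and 5.18 in hepatocyte-like cells, 5.15, 5.52 and 5.69 in adult hepatocytes, and 5.54, 5.66, 5.55 and 5.71 in embryonic stem cells. It was not called. Its order over the 3 hepatocyte-like arrays, with replicate 2 highest and replicate 3 lowest, was that of Ccl17. Ccl22 and members elsewhere, such as Cxcl9 and Cxcl13, had that order too, so it is not particular to these neighbours. Ccl1, a CCR8 ligand, stayed between 4.04 and 4.37 on all 10 arrays.

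Among ligands that act in lymph node and gut homing, Ccl25, which draws CCR9 cells to thymus and small intestine, came closest to a call. It read 6.66, 7.18 and 7.14 in hepatocyte-like cells, 6.24, 6.17 and 6.06 in adult hepatocytes, and 5.94, 6.21, 6.27 and 5.72 in embryonic stem cells. The 3 hepatocyte-like arrays were above the other 7. The log2 difference was 0.96 ± 0.18 over embryonic stem cells (adjusted p = 0.00160) and 0.84 ± 0.20 over adult hepatocytes (adjusted p = 0.00464). Ccl20, the CCR6 ligand, Ccl28, a mucosal CCR10 ligand, and Xcl1, the XCR1 ligand of T cells and natural killer cells, were not called, and their group means were 4.57 to 5.21.

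**Figure D4:**
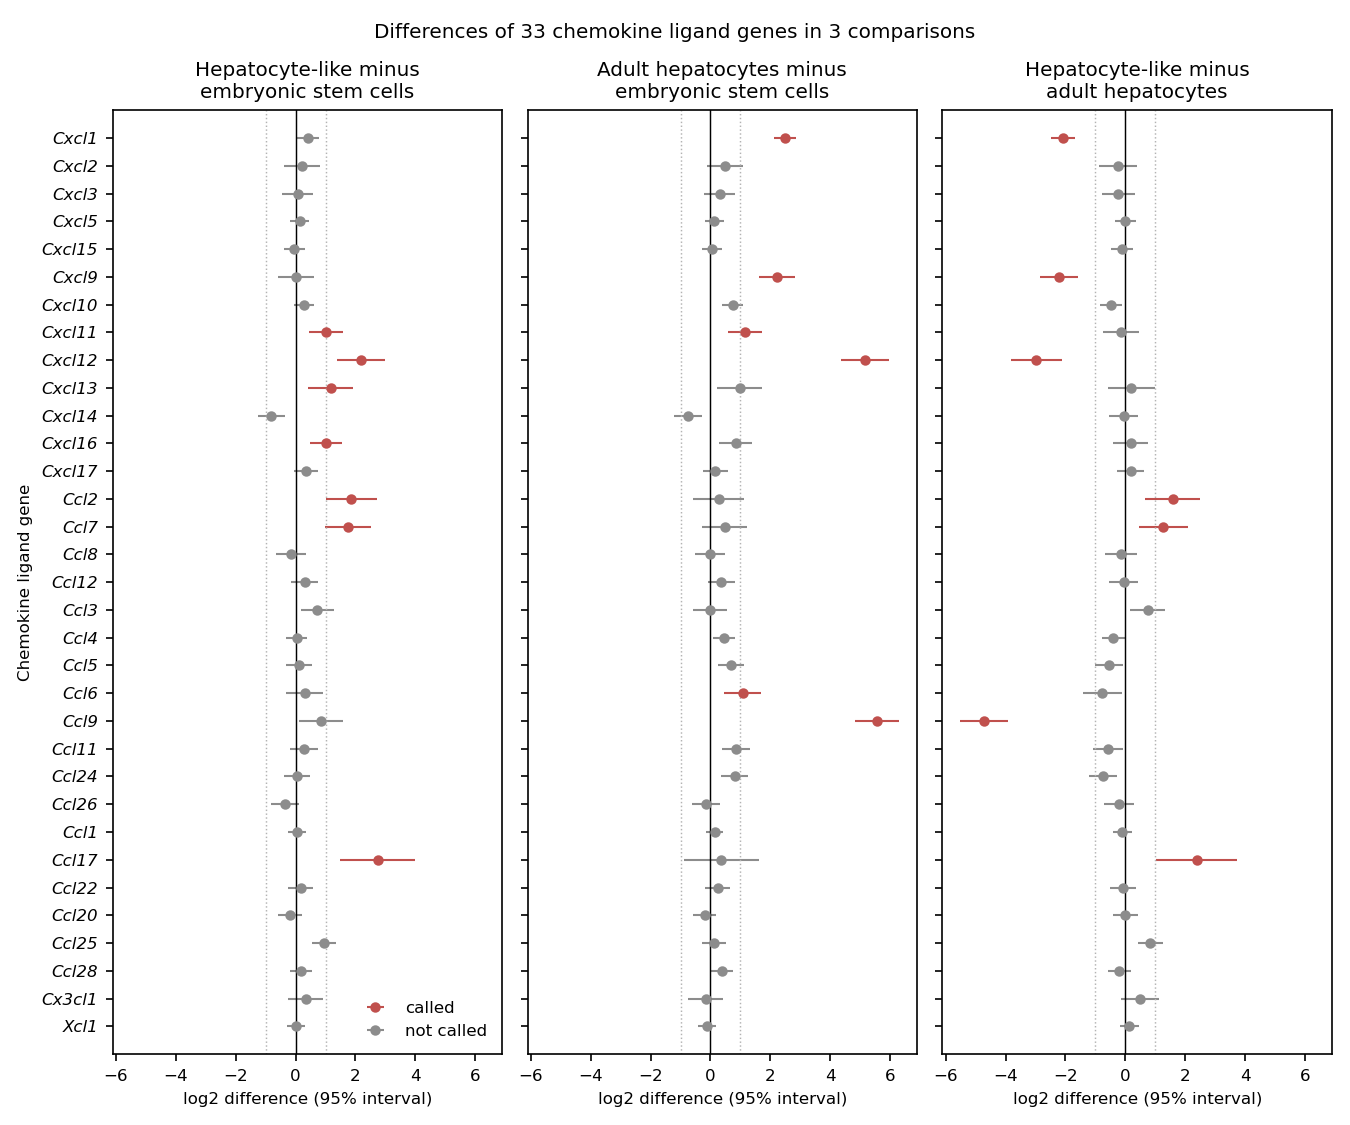
Log2 difference with its 95% interval for the 33 ligand genes (rows, in the order of the heat map) in the 3 comparisons (panels), with called genes in red and dotted lines at a log2 difference of 1 either way. The called genes lie to the right in both comparisons with embryonic stem cells, whereas between hepatocyte-like cells and adult hepatocytes 3 lie to the right and 4 to the left.

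The 3 hepatocyte-like arrays differed among themselves more than the arrays of the other kinds: the median range of the 33 genes was 0.63 in hepatocyte-like cells (3 arrays), 0.36 in adult hepatocytes (3 arrays) and 0.43 in embryonic stem cells (4 arrays). Replicate 2 was the highest hepatocyte-like array for 21 of 33 genes, including Ccl3, Ccl9, Ccl17, Cxcl12 and Cxcl13. Replicate 3 was highest for 4 and replicate 1 for 8. Of the 33 genes 12 had a hepatocyte-like mean at or above 5.5. Among those 12, replicate 2 was highest for 7, replicate 3 for 3 and replicate 1 for 2. The ranges and counts were not set against all genes tested, so they are not shown to be particular to the ligands. Ccl2, Ccl7 and Cxcl16 were highest in replicate 3. The cholangiocyte list was also highest in replicate 2, at 7.26 against 6.71 and 6.56 in replicates 1 and 3, as was the endothelial list, at 5.86 against 5.42 and 5.37. The stellate cell and fibroblast list was highest in replicate 1, and the hepatocyte list in replicate 3.

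Genes around the ligands were then counted from lists of the pathway. Inflammatory inducers and their receptors moved mostly by their receptors. In hepatocyte-like cells 5 of 20 rose over embryonic stem cells and 1 fell, Tlr2 (-1.30 ± 0.18). Those that rose were the oncostatin M receptor Osmr (2.98 ± 0.18), Ifngr1, Ifngr2, the interleukin 1 receptor Il1r1 (2.12 ± 0.37) and the TNF receptor Tnfrsf1a (2.11 ± 0.18). In adult hepatocytes 12 of 20 rose and 1 fell, again the toll-like receptor Tlr2 (-1.45 ± 0.18), with Il1r1 at 3.43 ± 0.37, its co-receptor Il1rap at 3.23 ± 0.21 and the RNA sensor Tlr3 at 2.87 ± 0.19. In hepatocyte-like cells against adult hepatocytes 6 of 20 were lower and 1, Osmr, was higher (1.87). The lower genes included Il1rap (-2.68), Tlr3 (-2.11) and Il1a (-1.85). Il1r1 (-1.30) was also among them, but was not called without hepatocyte-like replicate 3 (-0.83). Of the inducers themselves, Tnf lay between 4.4 and 5.2, Il6 between 2.4 and 3.1 and Il1b between 3.4 and 4.7 on all arrays, and Il1a was higher in adult hepatocytes than in the stem cells (1.84 ± 0.17).

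Of 14 NF-kB subunits and feedback genes 2 rose and 2 fell in hepatocyte-like cells against embryonic stem cells. The inhibitor Tnfaip3 rose by 1.69 ± 0.19 and Nfkbiz, a nuclear co-activator, by 1.64 ± 0.16, while Bcl3 and the subunit Relb were lower (-1.90 ± 0.34 and -1.23 ± 0.21). In adult hepatocytes 5 rose and 2 fell, including Nfkbiz (1.59 ± 0.16), the kinase Ikbkb (1.27 ± 0.14), Relb (-1.87 ± 0.21) and Tnip1 (-1.99 ± 0.15). Hepatocyte-like cells had 3 higher and 0 lower than adult hepatocytes, Nfkb2 (1.39 ± 0.23), Tnfaip3 (1.12 ± 0.20) and Tnip1 (1.09 ± 0.16), of which Tnfaip3 was not called without hepatocyte-like replicate 3 (0.93).

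Genes that bind or cut chemokines differed in 8 of 13 between hepatocyte-like and embryonic stem cells, 7 higher and 1 lower. The matrix metalloproteases Mmp2 and Mmp14, which trim Ccl7 and Cxcl12, rose by 4.37 ± 0.31 and 3.76 ± 0.26. Between hepatocyte-like cells and adult hepatocytes 10 of 13 differed, 5 each way, with Mmp2 at 5.68 ± 0.33 and the heparan sulphate proteoglycans Sdc4 and Sdc2 at -2.86 ± 0.30 and -2.67 ± 0.17. In adult hepatocytes over embryonic stem cells 7 rose and 1 fell, with the aminopeptidase Anpep at 4.26 ± 0.23. The 17 chemokine receptors gave 0 calls between hepatocyte-like and embryonic stem cells by limma, and 2 passed an unadjusted p under 0.05, Ccr7 (0.60 ± 0.16, adjusted p = 0.0119) and Cxcr4. Ccr1, Ccr4, Cxcr5 and Cxcr6, the receptors of Ccl9, Ccl17, Cxcl13 and Cxcl16, were below 5.5 on every array and were not called in any comparison. Of 5 atypical receptors Ccrl2 was called, higher in adult hepatocytes than in the stem cells (1.07 ± 0.16) at levels of at most 5.02.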

How the data were processed

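Per the labels, total RNA carried a biotin label and went onto Affymetrix arrays. The values are the authors' deposited log2 levels of 41345 transcript clusters on 10 arrays. RMA, Transcriptome Analysis Console, oligo 1.38.0 and R 3.3.1 stand in the submitters' processing notes, with no role stated. No source used here gives the summarisation level or build. The log2 scale was inferred from values of 1.27 to 13.58, and the medians of single arrays were 4.91 to 5.07. No scanner file was used, and precision is limited by how many arrays there are. In the platform annotation 23521 clusters had 1 symbol, 1814 had several and 16010 had none. For genes with several clusters (1082) the one with the highest mean was kept, and all 33 ligand genes matched RefSeq by Entrez identifier.

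The 3 comparisons were contrasts of 1 limma 3.58.1 fit (R 4.3.3, lmFit and eBayes, 2-sided) of all 10 arrays by group, with 7 residual and 5.34 prior degrees of freedom, adjusted by Benjamini-Hochberg over 22180 genes. The fit was tested on simulated data. Members, gene lists and thresholds were chosen with earlier results of these data known. Values per array are given for members called in any comparison, and up to 4 called genes are named per pathway list, with the receptors of called ligands. Other members, list genes and markers named beside them were chosen after their values were seen. Alternatives were other normalizations, filters, variance models, thresholds, a replicate block and each array left out. Figures used matplotlib 3.10.9.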

Additional observations from a re-analysis of the deposited data

Results flagged for a closer look

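Within the 4 embryonic stem cell arrays, Cxcl2 read 3.51 in replicate 2, and the gap to the other 3 arrays, at 4.00 to 4.09, took 0.839 of the group's range. All 33 ligand genes were screened in this way, and chance marks about 1 group in 20. Cxcl2 was below 5.5 in the mean of every cell kind and was not called in any comparison.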

How the results depend on the processing

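With each array left out in turn, the number of ligand genes called was 6 to 8 for hepatocyte-like against embryonic stem cells, 5 to 7 for adult hepatocytes against embryonic stem cells and 5 to 9 for hepatocyte-like cells against adult hepatocytes. In the last comparison the members called higher, 3 in all, were 1 without hepatocyte-like replicate 3 and 5 without replicate 1. With no minimum difference the counts were 14 (13 higher) for adult hepatocytes against embryonic stem cells and 11 (5 higher) for hepatocyte-like cells against adult hepatocytes, because that setting drops a criterion. Under the other settings tried the 3 counts stayed within 1.5 times, and no called gene reversed. Over all genes, same-numbered arrays did not deviate together (correlations of -0.19 to 0.14). This check cannot show whether they shared a preparation, which the labels do not state. It also does not look within a kind. In some listed genes stem cell replicates 1 and 3 lay apart from 2 and 4, such as Mmp2 (5.95 and 6.05 against 6.91 and 6.96). How many genes do so was not counted. With the replicate block 6, 6 and 7 members were called, against 7, 6 and 7 without it. Ccl9, Cxcl1, Cxcl9 and Cxcl12 kept each of their calls under all 19 alternatives, as did Ccl17. The data hold no background signal per probe, so differences among genes below 5.5 were not resolvable. The calls of pathway genes without hepatocyte-like replicate 3 were an alternative chosen after seeing the data.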
